A study of Mus musculus with 12 samples.

Results

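The miRNAs mmu-miR-147, mmu-miR-187, mmu-miR-132 and mmu-miR-511 (below without the prefix for mouse) are small RNAs that have been linked to the activation of macrophages, and their assays were picked by name from the panel. They are 4 of the 517 mouse miRNA assays in the main table, of which 513 held values, and each of the 4 had a value in all 12 samples. Levels were measured by quantitative PCR in total RNA of whole carotid arteries of female apoE-/- mice, which lack apolipoprotein E and develop atherosclerosis on a fatty diet. The mice were 6 to 8 weeks old by the labels. All received a high-fat diet with 21% crude fat and 0.15% cholesterol for 6 weeks. In the ligated group, the left carotid artery had lost its outflow through the external, internal and occipital arteries, so that blood left it mainly through the superior thyroid artery, and the labels call it atherosclerotic. In the control group, the right carotid artery was untreated and is labelled non-atherosclerotic. Each group had 6 arteries and the series used 6 mice, so every mouse could have given a left and a right artery, but the labels tie no left artery to a right one. The question asked here is whether these miRNAs changed with ligation.

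Macrophages that sense microbial products or lipids through Toll-like receptors switch on inflammatory genes, and a set of miRNAs is switched on with them that tunes the response. miR-147 is induced in mouse macrophages by Toll-like receptor ligands and holds back the release of inflammatory cytokines. miR-187 is induced by interleukin-10 in activated human monocytes and limits their tumour necrosis factor. miR-132 is induced through the transcription factor CREB in many cell types, macrophages and neurons among them, and is transcribed together with miR-212. miR-511 lies within Mrc1, the gene of the macrophage mannose receptor CD206, and is made along with it.

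The RefSeq sequences (GRCm38.p6) are shown because seeds, the bases that pair with target mRNAs, tell which of these miRNAs could share targets. Capitals mark the seed, bases 2 to 8, and all sequences are on the plus strand and read 5′ to 3′. The assay names give no arm, so both listed arms of miR-132 are given, and for miR-147 and miR-511 the arm listed in the sequence table, which may not be the arm the assay detects.
miR-132-3p: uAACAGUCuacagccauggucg
miR-212-3p: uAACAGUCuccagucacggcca
miR-132-5p: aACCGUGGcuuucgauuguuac
miR-147-5p: uGGAAACAuuucugcacaaacuag
miR-511-3p: aAUGUGUAgcaaaagacaggau
The seed of miR-132-3p occurs in 1 other of the 1738 mature mouse sequences in the table, that of miR-212-3p, and the other 3 seeds shown occur in no other. miR-212 had no assay in the files used here, nor did a second arm of any of the 4 miRNAs. The hairpins, which hold both arms, are given next with the listed mature sequences in capitals.
Mir147: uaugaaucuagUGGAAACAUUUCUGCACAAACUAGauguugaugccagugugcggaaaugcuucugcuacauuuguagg
Mir132: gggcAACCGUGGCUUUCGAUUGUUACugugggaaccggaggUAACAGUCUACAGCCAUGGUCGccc
Mir511: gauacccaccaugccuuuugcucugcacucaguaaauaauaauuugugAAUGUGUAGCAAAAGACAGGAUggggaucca
Mir147 lies at chr2:122640803-122640881, inside the bounds of the protein-coding gene AA467197. Mir511 lies at chr2:14261003-14261081, inside Mrc1. Mir132 lies at chr11:75173682-75173747 and inside no other gene of the table, 203 bases from Mir212 on the same strand. No exon or intron annotation was used here. miR-187 had no entry in the sequence table.

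Of the 513 assays, 283 were detected (Ct below 35) in all 12 samples and 113 in none, and 339 were detected in at least 4 samples of a group and were tested. A Ct is the PCR cycle at which product crosses a threshold, so a lower Ct means more RNA, and wells without product are listed at 40. The level used below is the mean Ct of the 283 miRNAs in the sample minus the Ct of the assay, a log2 scale on which 1 unit is a 2-fold change at perfect PCR efficiency. Levels of different assays are not compared, because PCR efficiencies per assay were not used here. The arteries numbered 1 to 3 stood apart from those numbered 4 to 6 in both groups. The mean Ct of the 283 miRNAs was between 23.3 and 25.0 in numbers 1 to 3 and between 25.0 and 26.4 in numbers 4 to 6, and the median SD within a group was 0.592 and 0.285. The differences of the 4 miRNAs are therefore also given within these sets. Of 5 miRNAs taken here as contractile smooth muscle markers, miR-143, miR-145, miR-1, miR-133a and miR-133b, all were detected in every artery. Of 4 striated muscle miRNAs, miR-206 was detected in every artery and miR-208, miR-208b and miR-499 in none. Which type of muscle gave miR-1, miR-133a and miR-133b was not tested. miR-122 of liver was detected in none.

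In ligated arteries miR-147, with undetected wells at the limit, was higher and miR-187 lower. miR-132 and miR-511 did not pass the test without a block and passed it, as higher, with the replicate number as block. No label ties same-numbered arteries to each other. With the sets as block instead, miR-511 passed (limma, adjusted p 0.0149) and miR-132 did not (adjusted p 0.0545). Without a block, limma with Benjamini-Hochberg adjustment called 1 of the 4 higher and 1 lower, beside 25 (7.37%) higher and 17 (5.01%) lower of all 339 tested. The median log2 difference of the 4 was 1.00 and that of all tested assays was -0.05. With replicate number as block, 3 of the 4 were called higher and 1 lower, beside 30 (8.85%) and 22 (6.49%) of all tested. In the same-numbered comparisons miR-132 and miR-511 were higher in the ligated artery in 6 of 6, and miR-187 was lower in 6 of 6. Of the tested assays, 11.8% were higher in 6 of 6 and 11.8% lower. miR-147 was also higher in 6 of 6, but it was detected in only 1 of 6 control arteries. Its count therefore mainly restates detection and is not read as a separate result. The calls of miR-147 as higher in these fits also used the value given to its undetected wells. In these bulk samples, fewer cells of a type and less RNA per cell cannot be told apart.

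**Figure D1:**
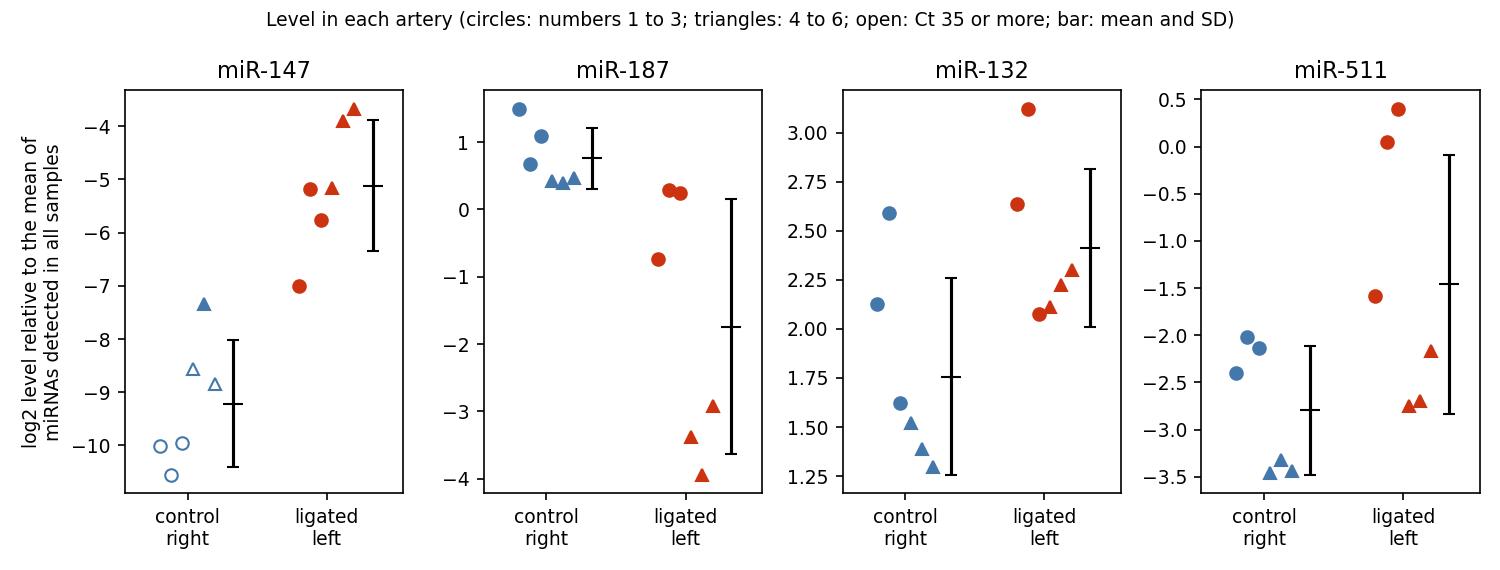
Log2 level of each miRNA, scaled to the 283 miRNAs found in every sample, in 6 control right and 6 ligated left arteries, with circles for numbers 1 to 3, triangles for 4 to 6, open symbols for wells at a Ct of 35 or more, and bars for mean and SD. The groups do not overlap for miR-147 and miR-187, and overlap for miR-132 and miR-511.

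**Figure D2:**
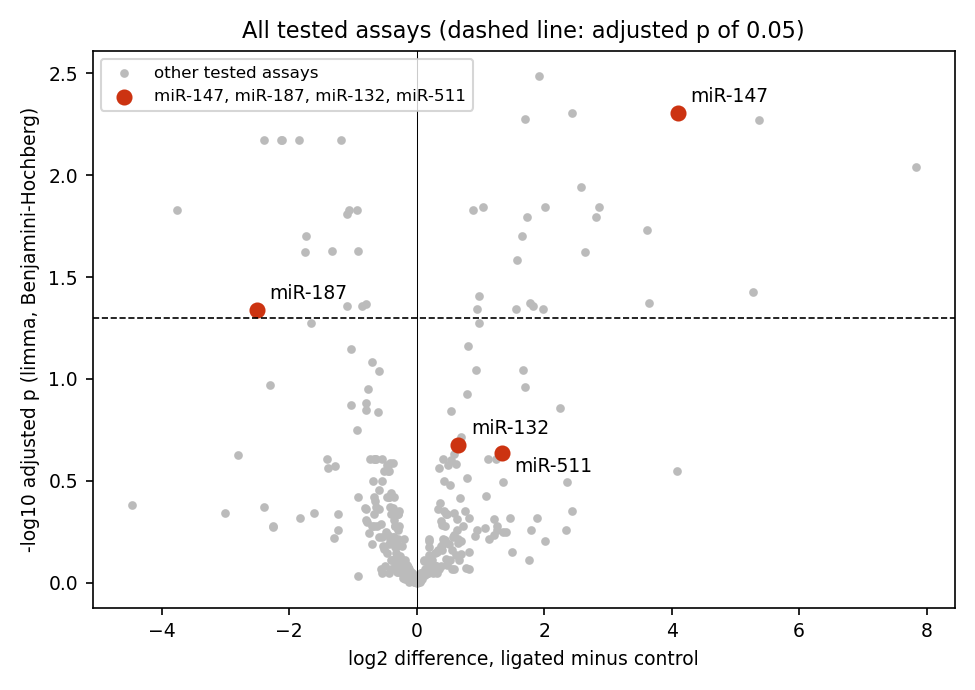
Log2 difference, ligated minus control, against -log10 of the adjusted p (limma, Benjamini-Hochberg) for the 339 tested assays, with the 4 miRNAs in red and a dashed line at an adjusted p of 0.05. miR-147 lies far to the right and above the line, miR-187 to the left and just above it, and miR-132 and miR-511 below it.

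miR-147, the Toll-like receptor-induced miRNA that restrains cytokines, was detected in every ligated artery and in 1 control artery. Among control arteries 5 of 6 wells were at 40 and only control 5 gave product, at a Ct of 32.99. The ligated arteries had a lowest Ct of 28.68, a median of 29.59 and a highest of 30.37. Every ligated artery thus crossed the threshold earlier than the only control artery that did, and raw Ct did not overlap, as in 10.6% of tested assays with a lower Ct after ligation. Detection in 1 of 6 against 6 of 6 arteries gave p = 0.0152 in Fisher's exact test (two-sided), with an adjusted p of 0.886 over the 117 assays whose detection varied. None of the 117 passed that adjustment (0%), and 2 (1.71%), miR-147 and miR-501-3p, had an unadjusted p below 0.05. miR-501-3p was named after its values were seen.

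With undetected wells set to 35, the level of miR-147 was -9.21 ± 1.19 (SD, n = 6) in control and -5.12 ± 1.23 (SD, n = 6) in ligated arteries. At that limit the fitted difference was 4.10 ± 0.66 (SE; limma, adjusted p 0.00494). The groups did not overlap, which was so for 4.72% of tested assays in the upward direction. In 5 control arteries the level is only the detection limit after scaling, so their spread is that of the scaling and not of miR-147, and miR-147 passed the filter through the ligated group alone. The size of the difference, its SE and its p follow the value given to those wells. It was 1.48 with a limit of 32 (adjusted p 0.109), 6.59 with a limit of 38 and 8.26 with the wells left at 40. With them left missing, which leaves control 5 alone, it was 2.22 (adjusted p 0.315). Whether an undetected well held little miR-147 or was a failed reaction was not tested. Within numbers 1 to 3 all 3 control wells were at 40 and the ligated wells between 29.37 and 30.34, so no difference was measured there beyond detection. In that set 1.47% of tested assays were called higher. Within numbers 4 to 6, with 1 detected control well, the difference at the limit of 35 was 4.00 ± 0.57 (SE; limma, adjusted p 0.00708), where 14.7% of tested assays were called higher. Scaled to U6 and snoRNA429 it was 3.89 ± 1.07 (SE) and did not pass (adjusted p 0.0917).

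miR-187, the interleukin-10-induced miRNA of human monocytes, was the only one of the 4 with a lower level in ligated arteries. Its Ct in control arteries had a lowest value of 23.49, a median of 24.60 and a highest of 26.01. In ligated arteries these were 23.80, 26.00 and 28.97. Raw Ct thus overlapped between the groups, also within numbers 1 to 3, but not within numbers 4 to 6, where it was at most 26.01 in control and at least 27.93 in ligated arteries. Its levels were 0.76 ± 0.45 (SD, n = 6) in control and -1.74 ± 1.90 (SD, n = 6) in ligated arteries, from 0.40 to 1.49 and from -3.94 to 0.28. The scaled groups did not overlap, as in 2.36% of tested assays in the downward direction. miR-187 fell by 2.50 ± 0.74 (SE) with an adjusted p of 0.0458 in limma, the 5th largest fall of the 339, and by 2.50 ± 0.58 (SE) with an adjusted p of 0.0288 with replicate number as block.

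The difference in miR-187 was larger in numbers 4 to 6 than in numbers 1 to 3, although the contrast of the sets did not pass. In numbers 4 to 6 the level was between 0.40 and 0.46 in control and between -3.94 and -2.92 in ligated arteries, a log2 difference of -3.84 ± 0.28 (SE) with an adjusted p of 0.00105 (limma), where 15.0% of tested assays were called lower. In numbers 1 to 3 it was between 0.67 and 1.49 in control and between -0.74 and 0.28 in ligated arteries, a log2 difference of -1.16 ± 0.42 (SE) with an adjusted p of 0.389. The raw Ct of the control minus that of the same-numbered ligated artery was -0.58, -0.13 and 0.15 cycles for numbers 1, 2 and 3, and -2.58, -3.71 and -2.23 for numbers 4, 5 and 6. In numbers 1 to 3, raw Ct of miR-187 was therefore nearly the same in both groups, while the mean Ct of the 283 miRNAs was lower in each ligated artery than in its same-numbered control. Tested in one model, the sets differed by -2.68 ± 0.50 (SE; limma, adjusted p 0.0637), with 1 assay (0.295%), miR-433, passing among all tested. miR-433 was named after its values were seen. The call of miR-187 was lost on leaving out any 1 sample except ligated 2 or ligated 3 (adjusted p in limma between 0.0513 and 0.104), and with raw Ct, where the difference was -1.51 (adjusted p 0.298).

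**Figure D3:**
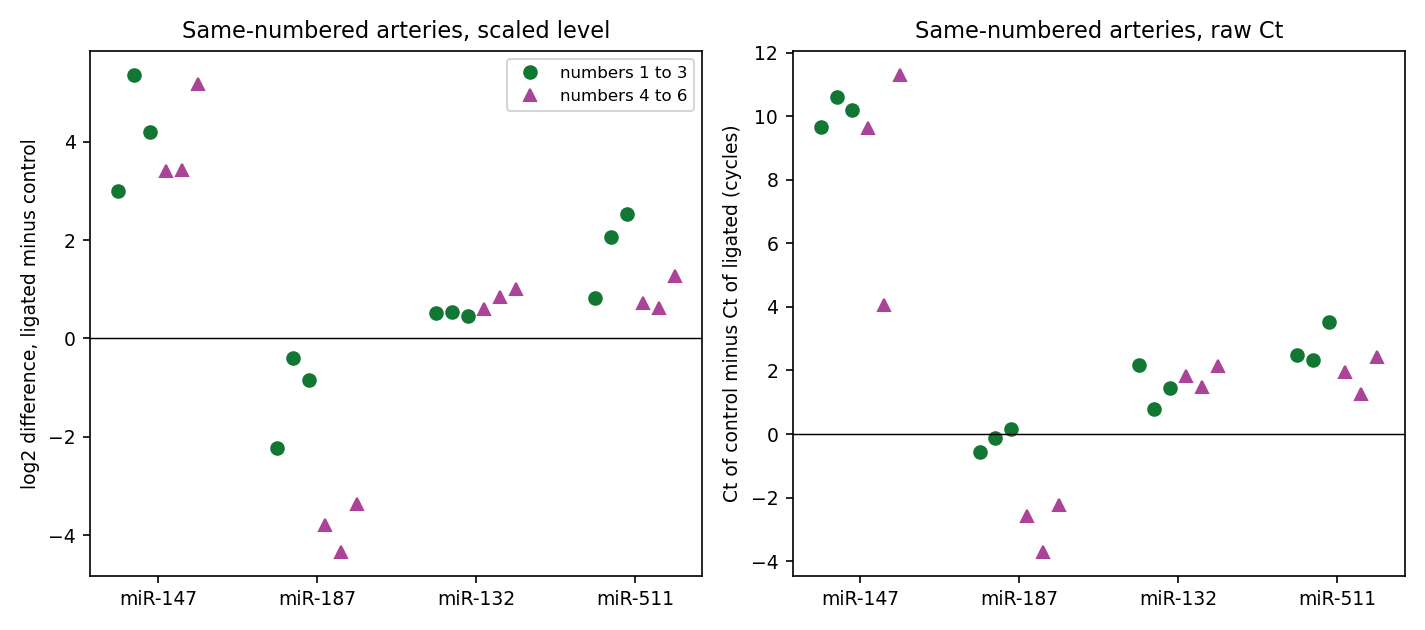
Left, log2 difference in scaled level (ligated minus control) of each pair of same-numbered arteries, and right, Ct of the control minus Ct of the ligated artery in cycles with wells without product at 40, for the 4 miRNAs; circles are numbers 1 to 3 and triangles 4 to 6. The raw differences of miR-187 lie near 0 in numbers 1 to 3 and between -3.71 and -2.23 in numbers 4 to 6, while those of miR-132 and miR-511 are above 0 in all 6.

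miR-132, the CREB-induced miRNA, had a higher mean level in ligated arteries. Its Ct was 21.86 at the lowest, 23.84 at the median and 24.91 at the highest in control arteries, and 20.69, 22.34 and 23.09 in ligated arteries. Levels were 1.76 ± 0.50 (SD, n = 6) and 2.41 ± 0.40 (SD, n = 6), and the groups overlapped, with control 2 at 2.59 above 4 of the ligated arteries. This was a 1.57-fold difference, 0.65 ± 0.28 (SE) on the log2 scale, and did not pass in limma (adjusted p 0.210). With replicate number as block the same difference had an SE of 0.16 and an adjusted p of 0.0321. The same-numbered differences ran from 0.45 in number 3 to 1.01 in number 6. Within numbers 4 to 6 the difference was 0.81 ± 0.13 (SE, adjusted p 0.00990), and within numbers 1 to 3 it was 0.50 ± 0.42 (SE, adjusted p 0.671). For the contrast of the sets the adjusted p was 0.814. With the sets as a block, where 10.9% of tested assays were called higher, it was 0.0545.

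miR-511, the miRNA of the mannose receptor gene, had a higher mean level in ligated arteries, with the highest values in ligated 2 and ligated 3. Its Ct in control arteries was 26.47 at the lowest, 28.18 at the median and 29.89 at the highest, and in ligated arteries 23.64, 26.04 and 27.95. Levels were -2.80 ± 0.68 (SD, n = 6) in control and -1.46 ± 1.37 (SD, n = 6) in ligated arteries. The groups overlapped across the sets but not within them: numbers 1 to 3 ran from -2.40 to -2.02 in control and from -1.58 to 0.40 in ligated arteries, and numbers 4 to 6 from -3.46 to -3.32 and from -2.75 to -2.17. This was a 2.53-fold difference, 1.34 ± 0.59 (SE) on the log2 scale, and did not pass in limma (adjusted p 0.230). It had an SE of 0.31 and an adjusted p of 0.0288 with replicate number as block, and an adjusted p of 0.0149 with the sets as a block. The same-numbered differences ran from 0.62 in number 5 to 2.53 in number 3. Within numbers 1 to 3 the difference was 1.81 ± 0.57 (SE, adjusted p 0.270) and within numbers 4 to 6 it was 0.87 ± 0.20 (SE, adjusted p 0.0272), and the contrast of the sets had an adjusted p of 0.732.

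**Figure D4:**
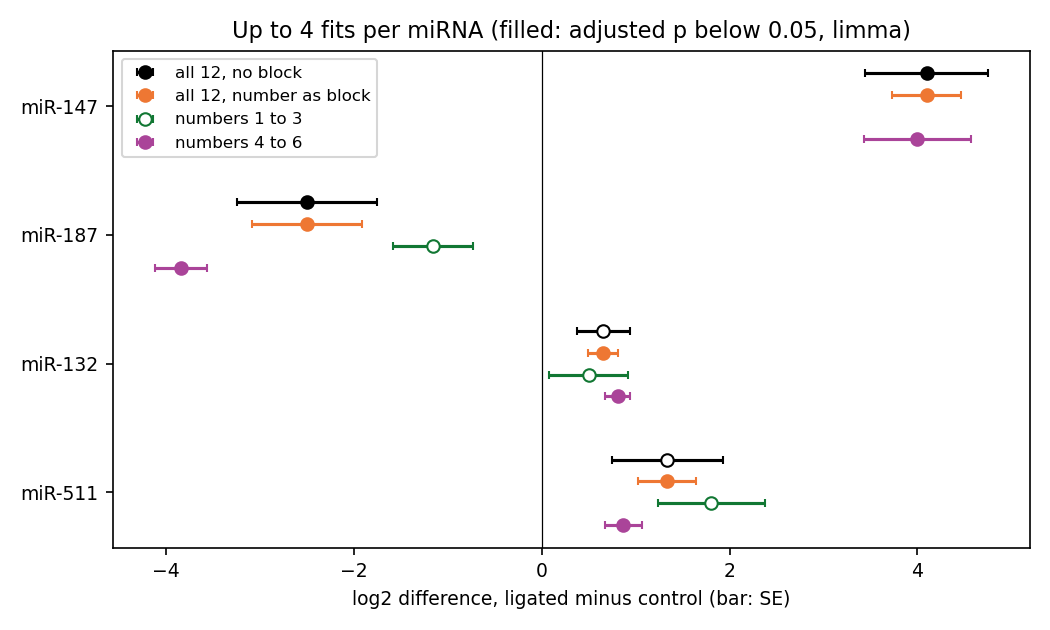
Log2 difference, ligated minus control, with its SE for each miRNA in 4 fits: all 12 arteries without a block, with replicate number as block, and within numbers 1 to 3 and 4 to 6, filled where limma's adjusted p was below 0.05. miR-147 was filled in the 3 fits shown and has none for numbers 1 to 3, where no control well was detected, miR-187 was filled in all but numbers 1 to 3, and miR-132 and miR-511 with the block and in numbers 4 to 6.

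Raw Ct moved the median of all tested assays to 0.93 on the log2 scale, and scaling to U6 and snoRNA429 to -0.26. A scaling shifts all assays of a sample alike, so that relative to this median the differences are the same by arithmetic, at -2.45 for miR-187, 0.71 for miR-132 and 1.39 for miR-511. Differences between 2 assays of one sample need no scaling at all. The Ct of miR-511 minus that of miR-187 had a lowest value of 2.69, a mean of 3.55 and a highest of 3.90 in control arteries, and of -1.24, -0.28 and 0.84 in ligated arteries. The sign of such a difference says nothing of which miRNA is more abundant, and only its change between groups is read here. All ligated arteries were below all control arteries. The mean moved by -3.84 cycles, with -2.96 in numbers 1 to 3 and -4.71 in numbers 4 to 6. The Ct of miR-187 minus that of miR-147, with wells above 35 set to 35, ran from -11.51 to -7.74 in control and from -6.27 to 0.04 in ligated arteries. Of the 6 pairs that the 4 miRNAs form, these 2 did not overlap between the groups, beside 6.74% of the 57291 pairs of tested assays. In the pair with miR-147 the limit of 35 sets all control values but 1, so its separation follows that limit and is not read as a result. The Ct of miR-132 minus that of miR-187 ran from -1.92 to -0.53 in control and from -6.17 to -1.83 in ligated arteries, and overlapped only between ligated 3 and control 2. The Ct of miR-511 minus that of miR-132 went from 4.55 ± 0.42 (SD, n = 6) to 3.87 ± 1.27 (SD, n = 6), with -1.31 in numbers 1 to 3 and -0.06 in numbers 4 to 6.

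**Figure D5:**
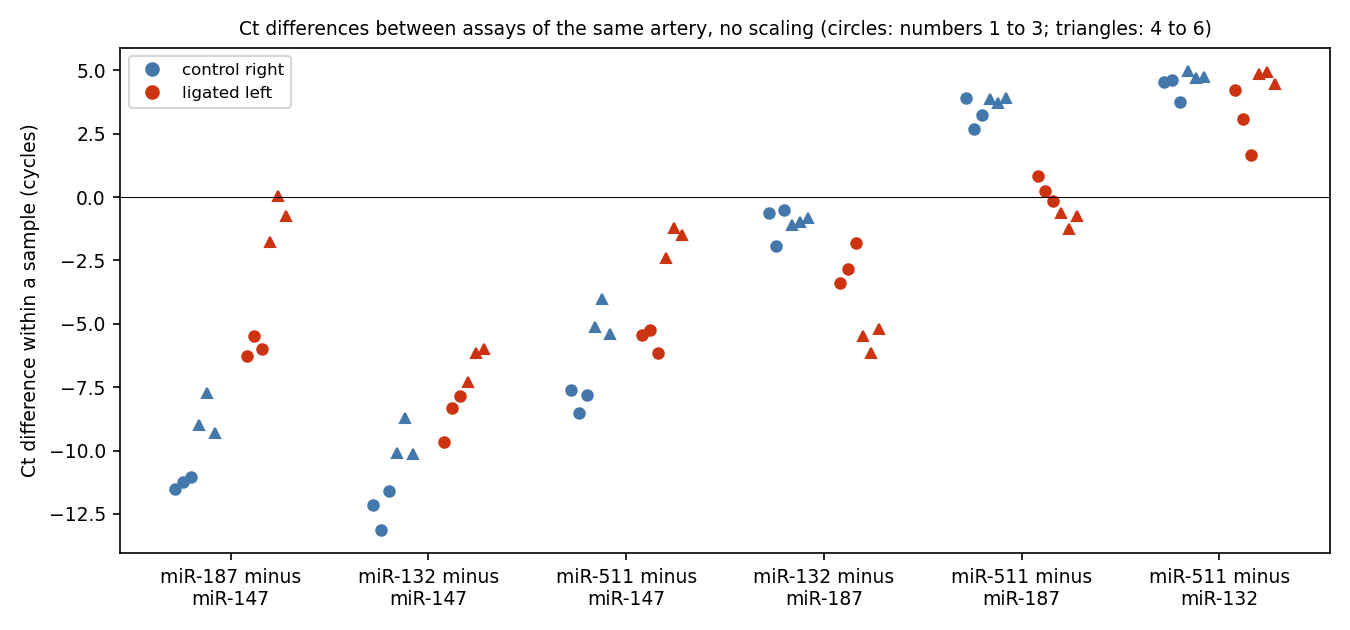
Ct difference in cycles between 2 of the 4 assays within each artery, without scaling and with wells above 35 set to 35, for control right (blue) and ligated left (red) arteries, with circles for numbers 1 to 3 and triangles for 4 to 6. The groups separate for miR-187 against miR-147 and for miR-511 against miR-187, and overlap for the other 4 pairs. For miR-147 the limit of 35 sets all control values but 1.

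Some markers of leukocytes and of contractile smooth muscle also differed between the groups. Of 5 leukocyte markers (miR-142-3p, miR-142-5p, miR-223, miR-150 and miR-342-3p), 3 were higher in ligated arteries and none lower, or 4 and none with the replicate block, beside 7.37% and 5.01% of all tested assays, or 8.85% and 6.49% with the block. The log2 of their summed levels ran from 5.75 to 6.73 in control and from 6.80 to 8.73 in ligated arteries. Such a sum adds assays without their PCR efficiencies, and assays with high levels weigh most in it. In the leukocyte sum miR-150, not called in either fit, had the highest mean level in control arteries, 5.19, before miR-223 at 4.24. In ligated arteries these were 5.65 and 5.91, with miR-342-3p at 5.31. The leukocyte sum thus does not track its 5 markers alike. Of the 5 contractile smooth muscle markers, 3 were lower and none higher, or 4 and none with the block, against the same shares of all assays. Their sum ran from 9.89 to 12.46 in control and from 8.49 to 9.93 in ligated arteries. In this sum miR-145 weighs most, with mean levels of 11.51 in control and 9.12 in ligated arteries. miR-143 follows at 7.49 and 5.37, so the sum mainly tracks miR-145 and not 5 markers alike. All 10 of these markers were detected in every artery. Their part in the results for the 4 miRNAs was not tested. The level of miR-511 relative to the leukocyte sum was -9.05 ± 0.40 (SD, n = 6) in control and -9.04 ± 0.63 (SD, n = 6) in ligated arteries, a shift of 0.16 in numbers 1 to 3 and -0.14 in numbers 4 to 6. That of miR-132 was -4.50 ± 0.42 (SD, n = 6) and -5.17 ± 0.75 (SD, n = 6), with -1.15 and -0.20 in the sets. No such value is given for miR-147, since the detection limit would set it. The level of miR-187 relative to the contractile smooth muscle sum was -10.89 ± 1.14 (SD, n = 6) in control and -11.07 ± 1.57 (SD, n = 6) in ligated arteries, a mean shift of -0.18, made up of 0.23 for numbers 1 to 3 and -0.59 for numbers 4 to 6. Relative to that sum the means of miR-132 and miR-511 were 2.97 and 3.65 higher in ligated arteries, with 1.88 and 3.19 in numbers 1 to 3 and 4.06 and 4.12 in numbers 4 to 6. Relative to the leukocyte sum, miR-187 went from -5.50 ± 0.35 (SD, n = 6) to -9.32 ± 1.21 (SD, n = 6), a shift of -2.80 and -4.85 in the sets. The other marker lists, for endothelium, red blood cells, neurons, epithelium, striated muscle and lymphocytes, had no called member except 1 of 7 tested epithelial miRNAs, miR-375, which was lower.

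The assays with the most similar pattern over the 12 arteries were found by the mean absolute difference of levels after each assay's own mean was subtracted, among 338 other tested assays. For miR-147 they were miR-21, widely induced in injured tissue (0.753 cycles), miR-155, induced in activated macrophages and lymphocytes (1.11), and miR-34a, induced by p53 (1.13), against a median of 2.19 over all, with the limit of 35 in 5 control arteries of miR-147. For miR-187 they were miR-193 (0.583), miR-365 (0.779) and the muscle miRNA miR-133b (0.869), against a median of 1.68. Of these, miR-365 fell by 1.85 ± 0.35 (SE) with an adjusted p of 0.00669 in limma, and miR-193 and miR-133b had log2 differences of -1.38 ± 0.69 (SE) and -1.28 ± 0.63 (SE) that did not pass (adjusted p 0.274 and 0.268). With replicate number as block the adjusted p was 0.105 for miR-193 and 0.0321 for miR-133b. For miR-132 they were miR-674* (0.310), miR-19a (0.33) and miR-106a (0.334), against 0.839, and none of these passed the test. For miR-511 they were miR-188-5p (0.354) and the leukocyte miRNAs miR-342-3p (0.354) and miR-223 (0.358), against 1.21. These distances also contain what the arteries of a set share.

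Other miRNAs that respond to inflammatory signals in macrophages were taken from a list of 22, of which 21 were tested. Of these, 6 rose, none fell and 15 did not pass in limma, beside 7.37% higher and 5.01% lower of all tested assays, and their median log2 difference was 0.43 against -0.05 over all tested assays. With replicate number as block 8 were called higher and none lower, beside 8.85% and 6.49%. The remaining miRNA of the list, miR-146b, had no value in the main table. In a separate run, scaled to its 4 control RNAs, its level was -3.79 ± 0.20 (SD, n = 6) in control and -0.97 ± 0.73 (SD, n = 6) in ligated arteries. The 4 with the lowest p were miR-155, which rose by 2.44 ± 0.38 (SE), miR-21 by 2.86 ± 0.62 (SE), miR-221 by 1.73 ± 0.40 (SE) and miR-146a, a brake on Toll-like receptor signalling, by 1.65 ± 0.40 (SE). Where miR-147 would stand among them depends on the value given to its undetected wells. No miRNA of this list moved downward past the threshold as miR-187 did.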

How the data were processed

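RNA was isolated with the mirVana kit, per the labels' protocols. The main deposited table holds raw Ct values, per the file headers, with 40 for wells without product. The instrument and threshold settings: not given in the sources used here. A deposited value table of 519 assays equalled Ct less the average of U6 and snoRNA429 in all 513 shared assays to within 0.001 cycles, and its column medians lay between 10.7 and 13.8. Another deposited table holds raw Ct of 4 separately run assays, of which miR-146b was used, and of 4 control RNAs, to whose mean it was scaled.

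Wells at a Ct of 35 or more were set to 35, samples were scaled by their mean Ct over the 283 miRNAs found in all 12, and assays found in 4 or more of 6 samples of a group were tested with limma 3.58.1 in R 4.3.3 (lmFit and eBayes, group as the only term, Benjamini-Hochberg over 339 assays, threshold 0.05). The fit without a block was also run on simulated data with independent normal noise and no detection limit, sets or pairs. That run therefore says nothing of undetected wells or of the blocked fits. Detection was compared by Fisher's exact test. Repeated rows of the 6 control RNAs were averaged. Groups and replicate numbers come from the sample titles. No label says that same-numbered arteries came from 1 mouse. After group means were subtracted, same-numbered samples correlated over the tested assays, with r from 0.283 to 0.622, so the numbers were treated as pairs in a blocked fit. Once the means of sets 1 to 3 and 4 to 6 were also subtracted, r ran from -0.260 to 0.226. Nothing says whether these sets are batches. The p-values of limma measure the spread between arteries of 6 mice, and without a block they treat the 12 arteries as independent. That spread then includes the difference between the sets. For miR-147 the spread of the control arteries is mainly that of the scaling.

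The members and lists were chosen with earlier results of these data known. The text names the 4 miRNAs, assays of their hairpins or seeds, the 3 most similar assays for each, up to 4 called miRNAs per direction of the inflammation list, and the markers. miR-501-3p and miR-433 are outside this rule and were named after their values were seen.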

Additional observations from a re-analysis of the deposited data

How the results depend on the processing

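All directions of the 4 miRNAs were kept under the 30 alternatives for miR-147 and the 31 for each of the others. miR-147 could not be tested among assays detected in all 12 samples. The call of miR-147 held in 27 of 30, which include numbers 1 to 3 with no detected control well, and was lost with scaling to U6 and snoRNA429 (3.89), a limit of 32 (1.48) and undetected wells missing (2.22). All of the 27 gave a value to the undetected control wells, so their count does not measure how stable the difference is. The call of miR-187 held in 14 of 31. Besides most fits that left out 1 sample, it was lost with raw Ct (-1.51), quantile normalization (-2.62) and limits of 38 and 40 (both -2.51). It was also lost with no filter and unequal variances (both -2.50) and within numbers 1 to 3 (-1.16, with fewer samples). miR-132 passed with array weights (0.79), the replicate block (0.65) and within numbers 4 to 6 (0.81), and miR-511 with the replicate block (1.34), the sets as a block (1.34) and within numbers 4 to 6 (0.87). Leaving out 1 sample gave 3.81 to 4.48 for miR-147, -2.91 to -2.06 for miR-187, 0.51 to 0.82 for miR-132 and 0.97 to 1.59 for miR-511. miR-187 passed in 2 of these 12 fits, and miR-132 and miR-511 in none.

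Over all tested assays, calls higher and lower were 25 and 17, against 7 and 3 with U6 and snoRNA429, 57 and 0 with raw Ct, 51 and 50 with array weights, 13 higher with unequal variances, 30 lower with the sets as a block, 5 and 0 for numbers 1 to 3 alone, 50 and 51 for numbers 4 to 6 alone, and 8 and 4 in the deposited value table. The counts of 0 are limma's, and 6 assays with raw Ct and 13 within numbers 1 to 3 were lower at an unadjusted p under 0.05. Across the fits that each left out 1 sample, higher calls ranged from 15 to 26 and lower calls from 9 to 20. Removing control 4 left 16 higher and 9 lower, removing control 6 left 15 and 11, removing control 3 left 10 lower, and removing control 1, ligated 5 or ligated 6 left 11 lower. The cause of these changes was not tested. The replicate block changed no other call of the 4. In control arteries miR-147 gave product in only 1 well, at a Ct of 32.99, which limits what can be said of it there.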
